A study of Mus musculus with 10 samples.

Results

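The genes described are the 10 core circadian clock genes Arntl, Clock, Npas2, Per1, Per2, Per3, Cry1, Cry2, Nr1d1 and Nr1d2, chosen by symbol among the 55385 rows of a count table from mouse lung endothelium. They were chosen with their levels in the single libraries already known, and those levels are therefore given as a description. All 10 were found and all 10 were among the 17997 genes that passed the low-count filter. RNA sequencing was done on sorted lung endothelial cells of mice in which both copies of Tnfsf10, encoding the apoptosis-inducing ligand TRAIL, carry loxP sites (Tnfsf10 L/L). Controls had no Cre transgene (Cdh5.Cre W/W, n = 5 libraries), and EC-TRAIL KO-labelled libraries carried a tamoxifen-inducible Cre under the endothelial Cdh5 promoter (Cdh5.Cre Tg/W, n = 5). Mice were 8 to 14 weeks old, and deletion was induced with 1 mg tamoxifen a day for 5 or 10 days. The labels do not say which library had which length, nor whether controls received tamoxifen. They number the libraries of each group 1 to 5 without saying what a number stands for, and they give no time of day. The design text speaks of 4 Cre-carrying animals, while 5 libraries bear that label and all 5 were used. Whether every library is a mouse of its own is not stated, and the p-values below reflect the spread among the libraries as given.

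The circadian clock is a transcriptional feedback loop that runs in nearly every cell, endothelium included. ARNTL (also called BMAL1) pairs with CLOCK or its paralog NPAS2 and switches on genes through E-boxes, among them the Per and Cry genes, whose proteins return to the nucleus and silence the pair. In a second loop the nuclear receptors REV-ERBα and REV-ERBβ, encoded by Nr1d1 and Nr1d2, repress Arntl, Clock, Npas2 and Cry1 through elements that they share with the activating ROR receptors. In a tissue with a running clock, transcripts of Nr1d1, Per and Dbp peak at a different time of day from those of Arntl and Npas2.

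The promoter sequences below show these elements where they were found, in windows of 300 bases that run from 250 before to 50 after an annotated start (RefSeq, GRCm38.p6), written along the gene's strand. Capitals mark a match to any motif searched on both strands, namely the E-box CACGTG, its variant CACGTT (added after the values were seen), the D-box TTANGTAA, the cyclic AMP response element TGACGTCA and the REV-ERB/ROR element. The Arntl window (chr7:113207261-113207560, plus strand) is shown for its REV-ERB/ROR element, the Cry1 (chr10:85185005-85185304, minus strand) and Per1 (chr11:69098699-69098998, plus strand) windows for their E-boxes, the Per3 window (chr4:151044616-151044915, minus strand) for its D-boxes, and the Nr1d1 window (chr11:98775328-98775627, minus strand) because Nr1d1 varied the most.
Arntl: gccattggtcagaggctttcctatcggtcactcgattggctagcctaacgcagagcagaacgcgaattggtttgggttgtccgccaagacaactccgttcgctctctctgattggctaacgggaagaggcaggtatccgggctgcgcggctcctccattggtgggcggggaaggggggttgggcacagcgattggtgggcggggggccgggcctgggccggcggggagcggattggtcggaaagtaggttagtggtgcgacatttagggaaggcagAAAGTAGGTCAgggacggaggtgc
Cry1: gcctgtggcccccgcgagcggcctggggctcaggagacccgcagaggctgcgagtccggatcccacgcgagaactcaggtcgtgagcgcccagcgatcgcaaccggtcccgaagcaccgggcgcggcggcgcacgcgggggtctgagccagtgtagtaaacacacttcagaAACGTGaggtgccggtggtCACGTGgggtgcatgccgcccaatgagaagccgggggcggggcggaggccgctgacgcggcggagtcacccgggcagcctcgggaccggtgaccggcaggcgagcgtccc
Per1: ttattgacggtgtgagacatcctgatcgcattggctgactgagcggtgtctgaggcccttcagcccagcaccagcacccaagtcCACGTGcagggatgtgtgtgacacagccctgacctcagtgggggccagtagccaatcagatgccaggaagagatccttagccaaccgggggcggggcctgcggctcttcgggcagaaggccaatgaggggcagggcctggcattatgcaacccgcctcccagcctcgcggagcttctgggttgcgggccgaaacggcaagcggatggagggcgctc
Per3: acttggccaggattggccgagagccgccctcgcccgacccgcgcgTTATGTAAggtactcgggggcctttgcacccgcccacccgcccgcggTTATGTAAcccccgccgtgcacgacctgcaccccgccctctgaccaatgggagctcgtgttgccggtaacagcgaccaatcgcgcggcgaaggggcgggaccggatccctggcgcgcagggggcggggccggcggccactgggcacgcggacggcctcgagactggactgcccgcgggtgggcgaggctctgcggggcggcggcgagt
Nr1d1: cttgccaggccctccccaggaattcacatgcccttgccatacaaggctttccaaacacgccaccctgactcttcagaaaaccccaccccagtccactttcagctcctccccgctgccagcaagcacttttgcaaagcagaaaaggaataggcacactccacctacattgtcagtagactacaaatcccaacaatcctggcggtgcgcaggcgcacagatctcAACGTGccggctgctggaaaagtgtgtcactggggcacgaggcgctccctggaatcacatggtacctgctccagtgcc

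A window was found for 9 of the 10 members, all but Per2. The REV-ERB/ROR element stood in 1 of the 9, Arntl, with its first base 26 bases after the start of the window's transcript, and in 0.384% of all 32851 windows. An E-box was found in 2 of 9, Cry1 and Per1, at 60 and 166 bases before the start, against 7.15% of all windows. Its variant was found in Cry1, Cry2 and Nr1d1, against 4.68%, and the D-box in the Per3 window alone, at 205 and 158 bases before the start, against 2.32%. No member's window held the full cyclic AMP response element, which was in 1.79% of windows. The percentages are shares of windows, while members were counted as genes, and Arntl, Clock and Per1 had more than 1 window. The 2 kinds of share are therefore not on the same scale. A match is only a description of these letters, and elements outside the windows were not searched.

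Totals of expected counts were 34435835 to 56897822 for controls against 29806083 to 34702571 for EC-TRAIL KO-labelled libraries. Tnfsf10 was at 298 to 374 CPM (counts scaled to library size, with TMM factors) in controls and at 80.99 to 318 CPM in EC-TRAIL KO-labelled libraries, where replicate 2, at 318 CPM, lay inside the control range. Endothelial markers summed to 10990 to 12693 CPM in controls and 10949 to 12748 CPM on the EC-TRAIL KO side, with none of the 10 markers at 0. Markers of other cells were present as well, with alveolar epithelial markers at 7709 to 11737 and 6467 to 9325 CPM in sum, leukocyte markers at 1267 to 1923 and 1073 to 1581, pericyte and smooth muscle markers at 360 to 487 and 284 to 460, fibroblast markers at 411 to 530 and 322 to 548, and platelet and erythroid markers at 10.6 to 32.3 and 7.40 to 16.7 CPM. Lyz2 made up most of the leukocyte sum, at 1182 to 1827 CPM in controls and 1001 to 1493 CPM on the EC-TRAIL KO side. Each other leukocyte marker reached at most 51.6 CPM, and Ptprc at most 4.64 CPM. Of all these markers 1 was at 0 in any library, the T cell gene Cd3e in 1 library. Their part in the results below was not tested beyond the values given. In bulk RNA, fewer cells of a type and less RNA per cell cannot be told apart.

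Per kilobase of annotated exon, Per1 had by far the highest level among the members, at 63.9 ± 18.9 CPM per kb in controls (SD, n = 5). By mean, Nr1d1 followed at 14.3 ± 13.8 and Clock at 10.5 ± 0.914 CPM per kb. The mean of Nr1d1 rested on control replicates 4 and 5 (107.8 and 67.0 CPM), as replicates 1 to 3 had 23.1 CPM or less. The spread of Nr1d1 covered the levels of Clock, Nr1d2, Arntl, Cry2, Cry1 and Per2, so Nr1d1 could not be placed in the order among these. Per kb it was above Npas2 and Per3 in each library. Next by mean stood Nr1d2 (7.25 ± 4.46), Arntl (6.80 ± 0.446), Cry2 (5.80 ± 0.547), Cry1 (5.63 ± 1.72) and Per2 (4.59 ± 1.27 CPM per kb). From Clock to Per2, neighbours in this order differed by less than 1 SD of the more variable gene. The exception was Arntl and Cry2, which differed by more than either SD. Npas2, at 2.39 ± 0.523, and Per3, at 1.42 ± 0.282 CPM per kb, had the lowest means, each more than 1 SD below its neighbour. EC-TRAIL KO-labelled libraries gave 75.9 ± 37.0 for Per1, 16.0 ± 16.6 for Nr1d1, 10.2 ± 0.672 for Clock and 1.51 ± 0.413 CPM per kb for Per3 (SD, n = 5).

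Among the activators, Arntl and Clock were nearly flat over the 10 libraries. Arntl (ENSMUSG00000055116, GRCm38 chromosome 7, 113207465 to 113314126, plus strand) was at 54.1, 52.0, 51.2, 52.9 and 45.5 CPM in control replicates 1 to 5 and at 57.2, 45.6, 46.6, 47.8 and 41.5 CPM in the corresponding EC-TRAIL KO-labelled libraries. The highest library was 1.38 times the lowest, and the libraries numbered 5 were the lowest of each group. Clock (chromosome 5, 76209868 to 76304792, minus strand), whose product is the usual partner of ARNTL, was at 148, 128, 146, 138 and 162 CPM in the controls and 152, 143, 137, 126 and 140 CPM on the EC-TRAIL KO side, a 1.28-fold range. Npas2 (chromosome 1, 39193731 to 39363236, plus strand), the alternative partner, was at 8.60, 14.7, 12.4, 12.3 and 9.26 CPM in the controls and 12.1, 9.36, 13.5, 13.4 and 7.07 CPM in EC-TRAIL KO-labelled libraries. Its range was 2.08-fold, numbers 3 and 4 were close between the groups, and numbers 1 and 2 were high in opposite groups. Across the 11274 genes with a mean of at least 5 CPM the median range was 1.42-fold, above those of Arntl and Clock.

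The REV-ERB genes varied the most, and their high libraries bore the same numbers in each genotype. Nr1d1 (ENSMUSG00000020889, chromosome 11, 98767932 to 98775333, minus strand) was at 23.1, 11.1, 11.004, 107.8 and 67.0 CPM in control replicates 1 to 5 and at 9.69, 17.3, 9.28, 107.2 and 102.7 CPM in EC-TRAIL KO-labelled libraries. All 4 libraries numbered 4 or 5 lay above all 6 numbered 1 to 3, in each genotype alike, and the highest was 11.6 times the lowest. Nr1d2 (chromosome 14, 18204054 to 18239127, minus strand), which encodes the related REV-ERBβ, was at 23.0, 15.7, 26.8, 64.5 and 66.0 CPM in the controls and 13.2, 31.5, 20.4, 67.0 and 75.6 CPM on the EC-TRAIL KO side. The same 4 libraries were again the highest, with a 5.72-fold range. Of the 11274 genes, 99.5% had a smaller range than Nr1d1 and 99.0% a smaller one than Nr1d2. Nr1d1 shares 263 exon bases on the opposite strand with Thra, the thyroid hormone receptor alpha gene, and the strand setting of the counting is not given in these sources. Thra was at 114 to 158 CPM over the 10 libraries and at 153, 132, 132 and 145 CPM in the 4 libraries where Nr1d1 was high, and the part of its reads in the Nr1d1 counts was not tested. Pericyte and smooth muscle markers summed to 360, 386, 431, 487 and 378 CPM in controls and 308, 284, 358, 404 and 460 CPM on the EC-TRAIL KO side. Numbers 4 and 5 were thus the highest on the EC-TRAIL KO side, while among controls number 4 was the highest and number 5 lay below numbers 2 and 3, and the part of these cells in the REV-ERB pattern was not tested.

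**Figure D1:**
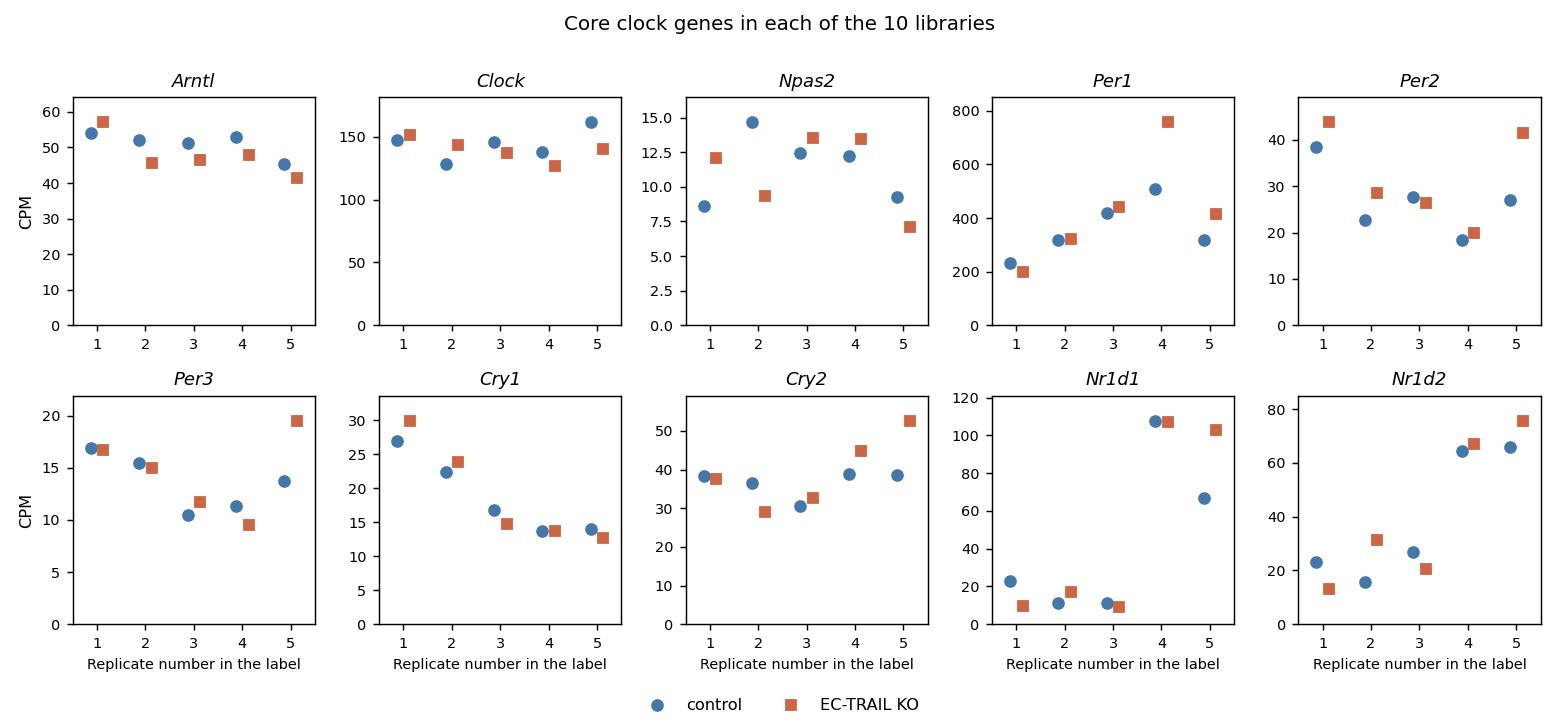
Level of each core clock gene in CPM (linear axis from 0) against the replicate number in the label, for controls (circles) and EC-TRAIL KO-labelled libraries (squares), 1 point per library. Nr1d1 is at 67.0 CPM or more in the 4 libraries numbered 4 or 5 and at 23.1 CPM or less in the other 6, while Arntl and Clock are nearly level.

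The Per genes encode the rhythmic repressors and are also acute targets of glucocorticoid and cyclic AMP signals, Per1 above all. Per1 (chromosome 11, 69095217 to 69109960, plus strand) was at 233, 318, 420, 509 and 317 CPM in controls, against 198, 323, 440, 759 and 416 CPM in EC-TRAIL KO-labelled libraries. Number 1 was lowest and number 4 highest in each group, and the range was 3.84-fold. Per2 (chromosome 1, 91415982 to 91459324, minus strand) was at 38.3, 22.7, 27.7, 18.5 and 27.0 CPM in the controls and 43.9, 28.4, 26.4, 20.0 and 41.4 CPM on the EC-TRAIL KO side. It was thus highest in number 1, where Per1 was lowest, and lowest in number 4, where Per1 was highest. Per3 (chromosome 4, 151003652 to 151044665, minus strand) was at 16.9, 15.5, 10.5, 11.4 and 13.8 CPM in the controls and 16.7, 15.0, 11.7, 9.50 and 19.5 CPM in EC-TRAIL KO-labelled libraries. Numbers 3 and 4 were the lowest of each group, and in number 5 the EC-TRAIL KO-labelled library exceeded its control for all 3 Per genes.

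The cryptochromes, the partners of the PER proteins, split. Cry1 (ENSMUSG00000020038, chromosome 10, 85131700 to 85185064, minus strand) was at 27.0, 22.3, 16.8, 13.8 and 14.0 CPM in the controls and 29.96, 23.9, 14.8, 13.7 and 12.6 CPM in EC-TRAIL KO-labelled libraries. Same-numbered libraries lay within 3 CPM of each other while the numbers spanned a 2.37-fold range, with number 1 highest and number 2 next in each group. Cry2 (chromosome 2, 92403646 to 92434043, minus strand) was at 38.4, 36.7, 30.7, 39.0 and 38.7 CPM in the controls and 37.5, 29.1, 32.6, 44.8 and 52.6 CPM on the EC-TRAIL KO side, a 1.81-fold range. The 2 highest libraries were EC-TRAIL KO-labelled replicates 4 and 5. Cry2 shares 295 exon bases with an antisense transcript, D930015M05Rik, which reached at most 0.680 CPM.

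The members moved in a few sets over the 10 libraries, given here as Pearson correlations of log2 CPM without p-values, since these levels led to the choice of the genes. Nr1d1 and Nr1d2 were the closest pair (r = 0.942), and Cry2 followed Nr1d1 (r = 0.732). Cry1 ran against Nr1d2 (r = -0.796), Nr1d1 (r = -0.668) and Per1 (r = -0.809). Per2 and Per3 went together (r = 0.771), each against Per1 (r = -0.71 and -0.727). Leaving out EC-TRAIL KO-labelled replicates 1 and 4, farthest from the median of Per1, gave r to Per1 of -0.459 for Per2 and -0.547 for Per3. For Cry1 it gave -0.779. Arntl was closest to Cry1 (r = 0.644), and was opposed to Nr1d2 (r = -0.618) and more weakly to Nr1d1 (r = -0.422). Without EC-TRAIL KO-labelled replicates 1 and 5, which lay farthest from the median of Arntl, these values were 0.335, -0.281 and -0.037. The points share their libraries and scaling factors, and 10 libraries leave such values imprecise.

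**Figure D2:**
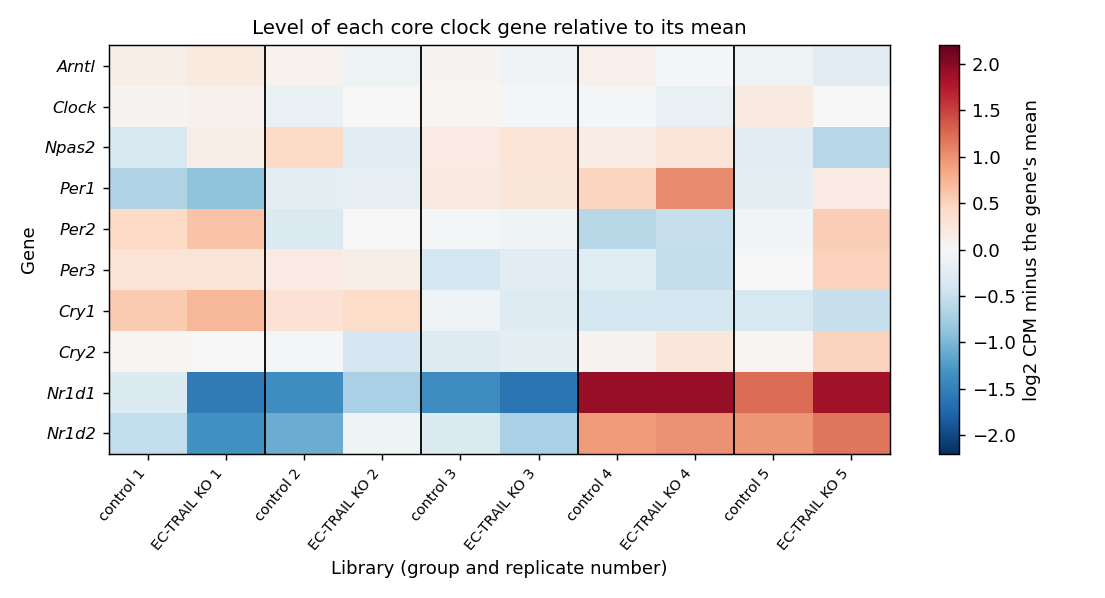
Log2 CPM of each core clock gene minus its mean over the 10 libraries (colour scale; red above and blue below the mean), with libraries ordered by replicate number and black lines between numbers. Same-numbered libraries have mostly the same colour for Per1, Cry1, Nr1d1 and Nr1d2, and the 4 rightmost columns, numbers 4 and 5, are red for Nr1d1 and Nr1d2.

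The genotype comparison sets Cre-carrying against Cre-free mice, so that TRAIL deletion, the Cre transgene and any difference in tamoxifen cannot be told apart. Tnfsf10 itself did not pass it (334 ± 35.7 against 179 ± 89.7 CPM, log2 fold change -0.90, SE 0.276, edgeR adjusted p = 0.425), and did without EC-TRAIL KO-labelled replicate 2 (-1.21, edgeR adjusted p = 0.0345). None of the 10 members passed the test (adjusted p of at least 0.997 for each in edgeR), where 0.439% of all tested genes were called, all higher in EC-TRAIL KO-labelled libraries. The groups overlapped for all 10 members, while over all tested genes 1.38% had every EC-TRAIL KO-labelled library above every control and 0.261% had the reverse. Arntl averaged 51.1 ± 3.35 CPM in the controls and 47.7 ± 5.81 CPM in EC-TRAIL KO-labelled libraries (SD over 5 libraries in each), with a log2 change of -0.10 (SE 0.0863). Clock had -0.048 (SE 0.0749). The spread of Nr1d1 was far wider, with 44.0 ± 42.4 and 49.2 ± 51.0 CPM and a log2 fold change of 0.16 (SE 0.817). In this fit without the replicate number, a change of over 1.5-fold in either direction lies within 1 SE of that value. With the replicate number as a block Nr1d1 was at -0.022 (SE 0.236). Nr1d2 stood at 39.2 ± 24.1 and 41.5 ± 28.1 CPM (log2 fold change 0.09, SE 0.507). Per1 was at 360 ± 107 and 427 ± 208 CPM (0.25, SE 0.302) and Per2 at 26.9 ± 7.41 and 32.0 ± 10.2 CPM (0.25, SE 0.228). The other 4 had log2 fold changes of -0.045 for Npas2, 0.01 for Cry1, 0.09 for Per3 and 0.10 for Cry2. Over the members 7 of 10 values were above 0, with a median of 0.09, beside a median of -0.0085 over all tested genes. The 7 became 4 without control replicate 3 or without EC-TRAIL KO-labelled replicate 4 or 5, and 5 with limma-voom.

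**Figure D3:**
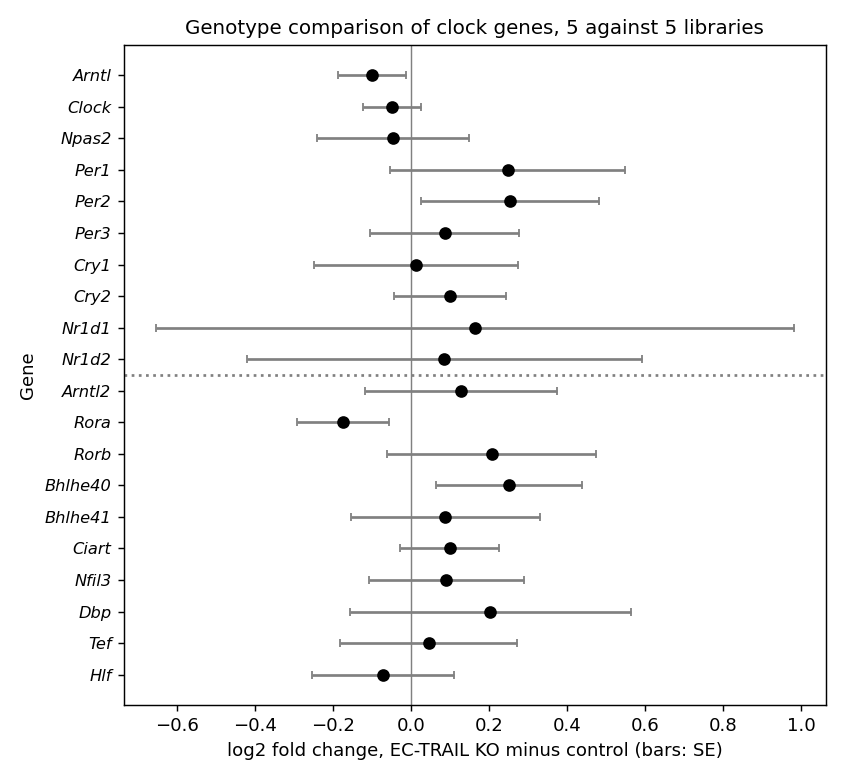
Log2 fold change of the core clock genes (above the dotted line) and of other loop and output factors (below it), EC-TRAIL KO-labelled libraries minus controls, with standard errors as bars (edgeR, 5 against 5 libraries). No gene shown passed the test, and the bar of Nr1d1, with an SE of 0.817, is the widest.

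Other factors of the loops were read from the same fits. They were 7 further loop factors, 3 PAR bZIP output factors and 8 clock kinase, ubiquitin ligase and related genes. A last list held 10 genes known to cycle in many tissues. None passed the genotype test. The edgeR adjusted p was at least 0.997 for each gene but Wee1, of the last list, at 0.205 (log2 fold change 0.57, SE 0.147). The activating receptor gene Rora had a log2 fold change of -0.17, and Rorb, at most 0.846 CPM in any library, 0.21. Among the E-box repressors Bhlhe40 had 0.25, Bhlhe41 0.09 and Ciart 0.10, the bZIP repressor Nfil3 had 0.09 and the ARNTL paralog Arntl2 0.13. The output factors Dbp, Tef and Hlf had 0.20, 0.05 and -0.071. Medians of the 4 lists were 0.10, 0.05, 0.03 and 0.06, in the order given above.

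A test of the library number, with genotype in the model, compared the 5 numbers across both groups for every gene. It called 654 of 17997 genes, 3.63% (edgeR quasi-likelihood F-test, adjusted p under 0.05). Of the members it called 5 of 10, namely Nr1d1, Nr1d2, Per1, Per2 and Cry1, from which nothing is read, because these values led to the choice of the genes. The count depended on single libraries. It was 108, 2241, 7, 20 and 359 genes without control replicate 1, 2, 3, 4 or 5, and 98, 1396, 7, 23 and 195 without EC-TRAIL KO-labelled replicate 1, 2, 3, 4 or 5. In the 4 fits without a library numbered 3 or 4, where 0.0382% to 0.126% of genes were called, no member and none of the further clock genes below was called.

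Of the 7 further loop factors 2 differed between numbers in this fit, Bhlhe40 and Rora. Bhlhe40, an E-box repressor that also responds to many acute signals, was at 91.8, 82.0, 109, 126 and 83.5 CPM in the controls and 97.4, 105, 117, 180 and 86.5 CPM in EC-TRAIL KO-labelled libraries (edgeR adjusted p = 0.0301). Like Per1 it was highest in number 4 of each group. Rora was at 62.3, 58.1, 61.0, 79.0 and 74.8 CPM in the controls and 53.0, 48.1, 59.2, 71.0 and 65.9 CPM on the EC-TRAIL KO side (edgeR adjusted p = 0.0435), with numbers 4 and 5 the highest of each group, as for Nr1d1. Nfil3, Ciart, Bhlhe41, Rorb and Arntl2 did not pass (edgeR adjusted p = 0.144, 0.284, 0.259, 0.489 and 0.616). Of the PAR bZIP factors, which carry clock output through D-boxes, 1 of 3 differed. Tef was at 63.7, 54.8, 56.8, 56.6 and 83.9 CPM in the controls and 51.6, 49.4, 50.4, 59.3 and 115 CPM on the EC-TRAIL KO side (edgeR adjusted p = 0.0376), highest in number 5. Dbp, usually the most rhythmic of them, was low at 1.73 to 7.93 CPM, lowest in number 3 of each group, and did not pass (edgeR adjusted p = 0.114), nor did Hlf (edgeR adjusted p = 0.70).

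None of the 7 kinase and ubiquitin ligase genes differed between numbers. Timeless, a replication fork gene named after a fly clock gene and kept in the same list, did. It was at 87.8, 63.5, 66.1, 44.1 and 56.0 CPM in the controls and 83.9, 69.3, 75.0, 43.2 and 63.0 CPM in EC-TRAIL KO-labelled libraries (edgeR adjusted p = 0.0146), highest in number 1 and lowest in number 4, the reverse of Per1. The ubiquitin ligase gene Btrc and the casein kinase gene Csnk2a1 came closest among the 7 (edgeR adjusted p = 0.225 and 0.289). None of the 10 genes known to cycle widely passed, with Lonrf3 (edgeR adjusted p = 0.0601), Coq10b (0.11) and Leo1 (0.23) closest. The calls of Bhlhe40, Rora, Tef and Timeless rest on single libraries as the whole count does. Over the 10 fits that each left out 1 library, the 4 lists together had 0 to 7 calls, none when control replicate 1, 3 or 4 or EC-TRAIL KO-labelled replicate 3 or 4 was left out, and 1 without replicate 1 or 5 of that group.

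Glucocorticoid targets were included because adrenal hormone sets clock phase in many tissues and induces Per1. Of 12 genes 6 differed between numbers, beside 3.63% of all genes, and none passed the genotype test. The list was chosen with earlier results of these data known. Tsc22d3, which encodes the glucocorticoid-induced leucine zipper GILZ, was at 96.7, 132, 306, 91.9 and 186 CPM in the controls and 84.7, 117, 254, 115 and 254 CPM in EC-TRAIL KO-labelled libraries (edgeR adjusted p = 0.0126). Pdk4, a metabolic kinase gene, was at 3.39, 4.18, 10.6, 13.8 and 8.49 CPM in the controls and 2.65, 3.12, 8.58, 17.0 and 16.0 CPM on the EC-TRAIL KO side (edgeR adjusted p = 0.0199). Map3k6 was at 117, 89.5, 194, 127 and 236 CPM and at 82.0, 107, 204, 181 and 367 CPM (edgeR adjusted p = 0.0257). Numbers 1 and 2 were below numbers 3 and 5 for each of these 3 genes in each group. Number 4, where Per1 was highest, was among the lower libraries for Tsc22d3 and among the higher ones for Pdk4. Fkbp5, Klf9 and Errfi1 were the other 3 called, named after their values were seen. Zbtb16, also named after its values were seen, had the widest range of the list (23.0-fold) and did not pass (edgeR adjusted p = 0.373). Number 1 gave 154 CPM in the control and 15.4 CPM in the EC-TRAIL KO-labelled library, and number 2 gave 21.2 and 134 CPM. The groups were closer in the other numbers. The count of 6 fell to 0 without either library numbered 3 or without control replicate 4, to 1 without EC-TRAIL KO-labelled replicate 4, and to 3 without replicate 1 of either group, and was 4 to 8 without any other library.

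**Figure D4:**
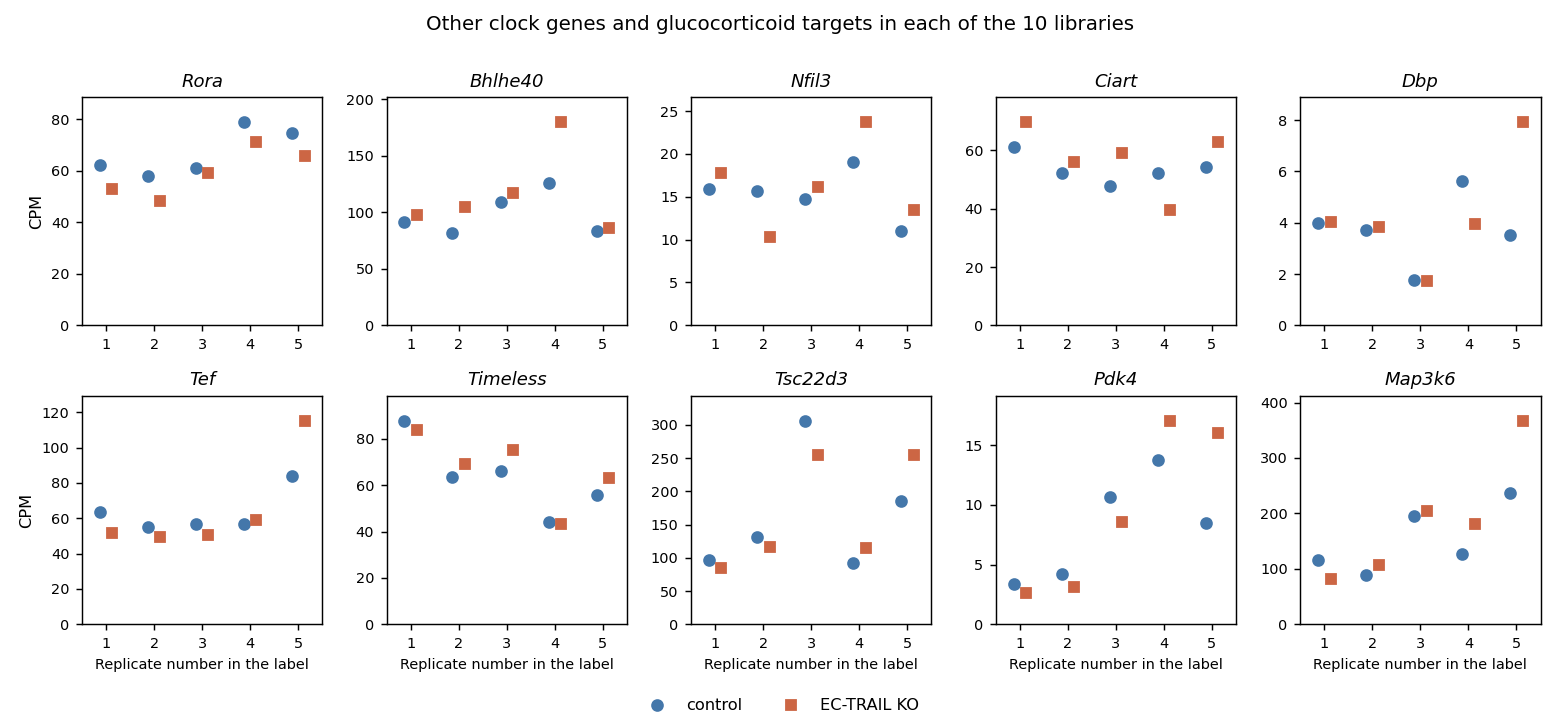
CPM (linear axis from 0) of 7 further clock genes and 3 glucocorticoid targets against the replicate number in the label, for controls (circles) and EC-TRAIL KO-labelled libraries (squares), 1 point per library. Rora is highest in numbers 4 and 5, Tef in number 5 and Bhlhe40 in number 4 of each group, and Tsc22d3 is high in numbers 3 and 5.

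Of 8 cold and heat response genes 1 differed between numbers, the heat shock gene Hspa1a, at 265, 294, 526, 603 and 501 CPM in controls and 329, 225, 383, 540 and 784 CPM on the EC-TRAIL KO side (edgeR adjusted p = 0.0453). Its near-identical neighbour Hspa1b shares reads with it, so the 2 values are uncertain. Hsp90aa1 (edgeR adjusted p = 0.0637) and the cold-inducible Cirbp (0.065) did not pass. None of 10 immediate early genes passed, with Btg2, Atf3 and Fosb closest (edgeR adjusted p = 0.0613, 0.0637 and 0.064), and none of 12 proliferation genes did (Bub1, Tpx2 and Mki67 at 0.052, 0.0883 and 0.109). By genotype, 10 of these 12 were higher in EC-TRAIL KO-labelled libraries (edgeR adjusted p under 0.05, median log2 fold change 2.36), with summed levels of 187 to 972 CPM against 59.7 to 123 CPM in controls. The median stayed at 1.93 to 2.56 when 1 library was left out, but no gene of the list was called when any 1 of the 5 controls or EC-TRAIL KO-labelled replicate 3 or 4 was the one left out, nor with library size only, limma-voom or the mean of other cell types' markers as a covariate. Among markers the platelet genes Pf4 and Ppbp differed between numbers (edgeR adjusted p = 0.0344 and 0.0346), which are 2 of 6 in their list, and no endothelial, alveolar, leukocyte, pericyte or fibroblast marker did. The summed platelet and erythroid level was 32.3 CPM in control replicate 4 and 7.40 to 16.7 CPM in the other 9 libraries, and its part in the number pattern was not tested. The single calls of Hspa1a, Pf4 and Ppbp were also lost in some fits without 1 library, among them those without a library numbered 3 or 4.

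The genes with the pattern most like Arntl were sought by Pearson correlation of log2 CPM over the 10 libraries among 12869 genes. They were picked for that value, so no p-value is given. The highest were B4gat1 (r = 0.939, Spearman rho = 0.867), Dhrs1 (0.934, 0.976), Slc48a1, a heme transporter gene (0.931, 0.939), Gli1, the Hedgehog pathway factor (0.923, 0.952), Acsl1, an acyl-CoA synthetase gene (0.914, 0.903), and Espn (0.912, 0.915). The most opposed were Wdfy1 (r = -0.895, rho = -0.952), Limk1 (-0.88, -0.782), Slc24a3 (-0.877, -0.891), Nde1 (-0.865, -0.83), Tmc7 (-0.851, -0.855) and Pex11a (-0.848, -0.83). Without the 2 libraries farthest from the median of Arntl, EC-TRAIL KO-labelled replicates 1 and 5, r was 0.846 to 0.947 for the first 6 and -0.924 to -0.733 for the others.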

How the data were processed

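The authors deposited expected counts per gene without normalization. STAR 2.7.1a, RSEM 1.2.28 and GRCm38 are named in the submitters' processing notes; the annotation release, any filter and the strandedness of counting are not given in these sources. Symbols and positions came from GENCODE M21 (GRCm38), which matched 55144 of 55385 identifiers. Rounded counts were then fitted with edgeR 4.0.16 under R 4.3.3 (limma 3.58.1 and DESeq2 1.42.0 as alternatives): filterByExpr with a minimum count of 10, TMM factors (0.971 to 1.04), quasi-likelihood tests and Benjamini-Hochberg adjustment over all 17997 genes at 0.05. Genotype was fitted alone, and replicate number with genotype. The SE of a log2 fold change is its size over the square root of F. Correlations used log2 CPM with a prior count of 2, and levels per kb used the union of annotated exons. In simulated counts with 17716 genes tested, the genotype test recovered 47.8%, 79.1% and 98.5% of 1.5-, 2- and 4-fold changes. The number test recovered 3%, 47.8% and 90.9% of such changes in number 4. Each simulated library was drawn independently, and only the genes changed in number 4 shared a level by number. These rates may therefore not hold for the real libraries, nor for members as variable as Nr1d1. Members and lists were chosen with earlier results of these data known. Named genes are the members, the loop and bZIP factors, up to 3 genes of each other list with the smallest p between numbers, and the 6 genes most like and most opposed to Arntl. Some genes of the lists are not reported here and were left out of the list counts.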

Additional observations from a re-analysis of the deposited data

Results flagged for a closer look

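Control replicate 3 had 30.7 CPM of Cry2, set apart from the other 4 controls at 36.7 to 39.0 CPM. The gap exceeded Dixon's critical value of 0.71 for 5 samples. It was the 1 such value in 20 groups of 5 libraries, 2 for each of the 10 members, and chance alone gives about 1 in 20. On the EC-TRAIL KO side replicate 2 was at 29.1 and replicate 3 at 32.6 CPM.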

How the results depend on the processing

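No member was called by genotype in any of the 180 fits of a member under the 18 alternatives (lowest adjusted p 0.493), among them the fit without EC-TRAIL KO-labelled replicate 2. The sign turned in 26 of them, in 7 members. Leaving out 1 library gave Npas2 at -0.13 to 0.079, Per1 at -0.063 to 0.43, Per2 at 0.11 to 0.42, Per3 at -0.044 to 0.21, Cry1 at -0.21 to 0.18, Cry2 at -0.026 to 0.19, Nr1d1 at -0.34 to 0.82, and Nr1d2 at -0.24 to 0.35. With limma-voom Cry1 was at -0.042 and Nr1d1 at -0.018, and with the mean of other cell types' markers as a covariate Npas2 was at 0.12, Cry1 at -0.065, Nr1d1 at 0.71 and Per2 at 0.068. All these are log2 fold changes, and the cause was not tested.

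Over all genes 79 were higher and 0 lower by genotype (923 at an unadjusted p under 0.05). Higher counts were 2 with library size only and with limma-voom, 1 with the marker covariate, 141 (2 lower) with no low-count filter and 208 (3 lower) with DESeq2, and leaving out 1 library gave 2 to 154 higher and 0 to 1 lower. Of the further clock genes DESeq2 called 1 by genotype, Wee1, a cell cycle kinase gene (log2 fold change 0.57, adjusted p = 0.0265). Between numbers 654 genes differed, against 3193 with no low-count filter, 2108 with DESeq2, and 179, 1920, 131, 11 and 425 without both libraries numbered 1, 2, 3, 4 or 5; leaving out 1 library gave 7 to 2241. The further clock lists had 4 calls, against 9 with no filter, 8 with DESeq2, and 0, 6, 1, 0 and 2 without each number in turn, and 0 to 7 without 1 library.

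Same-numbered libraries deviated from their group means together with r = 0.227, 0.0679, 0.21, 0.433 and 0.114 across genes for numbers 1 to 5. As number 2 was below 0.1, the numbers were not taken to pair the libraries. Libraries numbered 1, 3, 4 and 5 each correlated best with the same-numbered library of the other group. Those numbered 2 correlated best with number 1 of the other group. With the replicate number as a block 146 genes were higher and 3 lower, and Cry1 was at -0.015 (SE 0.0735) and Nr1d1 at -0.022 (SE 0.236). The number fit has few residual degrees of freedom, so small changes between numbers go unseen.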

Other observations

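The search for similar patterns was repeated with Nr1d1 and Per1, references chosen after their values were seen, among the same 12869 genes and without p-values, since the genes were picked for their correlation. Closest to Nr1d1 over the 10 libraries were Kif13a, a kinesin gene (r = 0.953, Spearman rho = 0.782), Med13l, a Mediator gene (0.946, 0.879), Wipf3 (0.941, 0.818), Ror2, a Wnt receptor gene (0.939, 0.964), Trp53cor1 (0.932, 0.879) and Casc1 (0.932, 0.709). Most opposed were Mogs, of glycoprotein processing (r = -0.966, rho = -0.964), Mvd, of the mevalonate pathway (-0.962, -0.891), Hps4 (-0.949, -0.891), Gja5, the connexin of arterial endothelium (-0.948, -0.903), Cmtr2 (-0.947, -0.83) and AI197445 (-0.945, -0.806). Gja5 was at 31.6, 37.2, 32.8, 17.2 and 23.3 CPM in controls and 34.6, 27.97, 36.6, 22.3 and 20.9 CPM in EC-TRAIL KO-labelled libraries. Its 4 lowest values were thus in the libraries numbered 4 or 5, where Nr1d1 was highest. Without the 2 libraries numbered 4, r was 0.88 to 0.922 for the first 6 genes and -0.971 to -0.936 for the others. The libraries numbered 5, where Nr1d1 was also high, stayed in, so the split into high and low libraries was not tested by this.

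With Per1 as the reference the most opposed gene was Prickle1, of planar cell polarity, with r = -0.976 (rho = -0.879). Ankrd50 had -0.972 (-0.939), Gata3 -0.971 (-0.952), the SoxF genes Sox7 and Sox18 -0.969 (-0.915) and -0.968 (-0.939), and Nynrin -0.953 (-0.867). Sox18 was at 316, 227, 210, 163 and 224 CPM in controls and 380, 269, 212, 104 and 216 CPM in EC-TRAIL KO-labelled libraries. It was highest in number 1 and lowest in number 4 of each group, the reverse of Per1. The genes most like Per1 were Htr2a, a serotonin receptor gene (r = 0.949, rho = 0.915), Birc3, an NF-kB target (0.949, 0.988), Ccn2, the connective tissue growth factor gene (0.936, 0.939), Dcun1d5 (0.931, 0.867), Maff (0.925, 0.915) and Hk2, a hexokinase gene (0.925, 0.806). Without EC-TRAIL KO-labelled replicates 1 and 4, which lay farthest from the median of Per1, r was 0.796 to 0.934 and -0.943 to -0.887.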
